A study of Mus musculus with 22 samples.

Results

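Inflammasomes are cytosolic protein assemblies in which a sensor (such as Nlrp3, Nlrp1b or Aim2) recruits the adaptor ASC, the product of Pycard, and through it caspase-1, which matures the cytokines interleukin-1 beta and interleukin-18 and cleaves the pore-forming protein gasdermin D. A noncanonical route runs through the caspase encoded by Casp4 in the mouse, which is activated by bacterial lipopolysaccharide in the cytosol. These genes are best known from macrophages and other myeloid cells, and inflammasome activity has been tied to the inflammatory secretome of senescent cells. Here the mRNA levels of 9 inflammasome components were followed: the sensors Nlrp3, Nlrp1b and Aim2, the adaptor Pycard, the caspases Casp1 and Casp4, and the regulators Pstpip1, P2rx7 and Txnip. They are 9 of the 55401 gene identifiers in the count table, and they were listed by name, with earlier results of these data already known.

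The data are RNA-seq read counts from 22 libraries of mouse embryonic fibroblasts (MEFs), primary cells grown from whole mouse embryos without head and viscera, which stop dividing after serial passage at atmospheric oxygen. S6K1 and S6K2, encoded by Rps6kb1 and Rps6kb2, are ribosomal protein S6 kinases that act downstream of mTORC1. The S6K1 set held 4 early-passage wild-type (WT) libraries at passage 3, 4 late-passage WT libraries at passage 8 and 3 late-passage S6K1 knockout (KO) libraries at passage 8. The S6K1/S6K2 set held 4 early WT libraries at passage 3, 4 late WT libraries at passage 8 and 3 late libraries of the S6K1/S6K2 double knockout (DKO) at passage 8, with no early-passage KO or DKO group in either set. The loss of both kinases was constitutive, so that it was present from the first passage. WT and KO embryos of the S6K1 set came from the same mothers, whereas the DKO embryos and their WT controls came from different crosses, so genotype and litter cannot be told apart in that comparison. The labels do not say which libraries share a mother or a culture, and P values therefore measure the spread between these libraries, which may be in part technical.

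Total counts per library were 10742454 to 17314832 (median 14651363.5), at which 3 counts correspond to 0.173 to 0.279 counts per 1000000 (CPM). Rps6kb1 was at 13.0 to 23.3 CPM in KO against 55.0 to 71.8 CPM in late WT MEFs, and at 19.6 to 30.0 CPM in DKO against 61.5 to 91.9 CPM in their late WT controls. Rps6kb2 was at 0.465 to 1.44 CPM in DKO against 10.7 to 17.0 CPM in late WT MEFs, and both targeted genes thus went the way of the labels. The labelled cell type was checked with 10 fibroblast markers, whose summed level was 30084 to 41959 CPM over the early WT and 18759 to 27550 CPM over the late WT libraries of both sets, so that it was lower at passage 8 without overlap. Of these 10 markers the collagen genes Col1a1 and Col1a2 were called lower with passage in each set and none was called higher. Reads from macrophages were sought with 19 marker genes, because most inflammasome components are myeloid genes. The defining markers Ptprc, Csf1r, Adgre1 and Spi1 had reads in every group, and the markers summed to 439 to 2125 CPM over the early WT libraries of both sets and to 5372 to 13561 CPM over the late WT libraries. The sums were 3759 to 4658 CPM in KO and 1037 to 3450 CPM in DKO libraries. In bulk libraries, a change in the number of cells of a type and a change in RNA per cell cannot be told apart, and this holds for every result here.

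Casp1 and Casp4 are neighbours on chromosome 9 (GRCm38, RefSeq), Casp1 at chr9:5298517-5307281 and Casp4 at chr9:5308849-5336791, with 1567 bases between them and both on the plus strand. Aim2 lies at chr1:173349547-173466040, Pycard at chr7:127991373-127993867, Pstpip1 at chr9:56078445-56128890, Txnip at chr3:96557957-96561857 and P2rx7 at chr5:122643927-122692336. Nlrp3 (chr11:59541569-59566955) and Nlrp1b (chr11:71152574-71242514) are on the same chromosome as the targeted Rps6kb1, 26.9 and 15.3 Mb from it. The 250 bases before the annotated start site are printed 5′ to 3′ on the gene's own strand for 6 members that differed in behaviour: Casp1, Aim2, Pycard and P2rx7, which were higher at late passage in both sets, Casp4, which was not, and Txnip, whose difference went in opposite directions in the 2 sets. Capitals mark matches, on either strand, to any of 5 letter patterns described below.
Casp1 (chr9:5298267-5298516, plus strand): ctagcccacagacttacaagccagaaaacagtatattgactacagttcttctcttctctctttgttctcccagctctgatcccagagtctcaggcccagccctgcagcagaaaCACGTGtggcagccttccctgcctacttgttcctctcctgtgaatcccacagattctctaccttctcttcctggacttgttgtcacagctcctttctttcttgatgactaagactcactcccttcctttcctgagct
Casp4 (chr9:5308599-5308848, plus strand, 1 of 2 annotated starts): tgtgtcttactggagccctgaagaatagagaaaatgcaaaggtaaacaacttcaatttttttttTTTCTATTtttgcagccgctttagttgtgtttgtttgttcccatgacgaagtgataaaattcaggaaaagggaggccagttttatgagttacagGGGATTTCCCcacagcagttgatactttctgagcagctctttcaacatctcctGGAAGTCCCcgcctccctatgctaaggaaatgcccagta
Aim2 (chr1:173420354-173420603, plus strand): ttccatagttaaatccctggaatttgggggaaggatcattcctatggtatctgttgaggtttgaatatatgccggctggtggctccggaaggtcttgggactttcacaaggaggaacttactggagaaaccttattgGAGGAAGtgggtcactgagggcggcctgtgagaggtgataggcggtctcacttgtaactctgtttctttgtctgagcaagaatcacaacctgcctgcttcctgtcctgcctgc
Pycard (chr7:127993868-127994117, minus strand): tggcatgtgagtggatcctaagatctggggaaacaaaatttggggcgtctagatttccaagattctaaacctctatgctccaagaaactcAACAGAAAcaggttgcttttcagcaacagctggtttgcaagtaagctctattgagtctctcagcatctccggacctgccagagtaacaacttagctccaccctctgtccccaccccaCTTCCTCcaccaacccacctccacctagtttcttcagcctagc
P2rx7 (chr5:122643677-122643926, plus strand, 1 of 2 annotated starts): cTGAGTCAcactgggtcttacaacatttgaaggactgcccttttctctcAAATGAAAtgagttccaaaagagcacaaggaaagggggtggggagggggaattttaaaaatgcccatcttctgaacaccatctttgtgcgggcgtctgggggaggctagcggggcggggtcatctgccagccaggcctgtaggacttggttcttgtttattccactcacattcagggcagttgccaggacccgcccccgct
Txnip (chr3:96557707-96557956, plus strand): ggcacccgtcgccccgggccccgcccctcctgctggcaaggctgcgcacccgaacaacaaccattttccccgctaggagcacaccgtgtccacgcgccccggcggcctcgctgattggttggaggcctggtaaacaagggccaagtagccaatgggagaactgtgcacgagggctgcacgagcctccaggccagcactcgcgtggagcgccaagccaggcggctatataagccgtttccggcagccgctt

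The patterns were the core letters bound by the myeloid factor PU.1 (GAGGAAG), by interferon regulatory factors (AANNGAAA), by NF-kappa-B (GGGANNNCC), by AP-1 (TGAGTCA) and by E-box factors (CACGTG). The 9 members have 13 annotated starts in the promoter table, of 32851 starts in all. The PU.1 letters were found before a start of 4 members (Aim2, Pycard, Nlrp3 and Nlrp1b). They are in 4 of the 13 windows and in 10.6% of all windows. The interferon regulatory factor letters were found for 5 members (P2rx7, Pycard, Casp4, Nlrp3 and Nlrp1b). They are in 9 of the 13 windows and in 21.3% of all windows. NF-kappa-B letters were found for Casp4 and Nlrp3 (3 of the 13 windows, 15.8% of all windows), with 3 partly overlapping matches before the Casp4 start printed here. The windows of the 2 Casp4 starts overlap and hold largely the same bases. The AP-1 letters occurred before the P2rx7 start (1 of the 13 windows, 4.46% of all windows). The E-box letters occurred before the Casp1 start (1 of the 13 windows, 6.02% of all windows). No pattern matched in the windows of Txnip and Pstpip1, which says only that these letters are not in these windows.

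Levels of different genes were compared as CPM per kilobase of exon. Among the late WT libraries of the S6K1 set, Txnip, an alpha-arrestin that binds thioredoxin and can bind Nlrp3, had the highest level, 75.9 ± 6.16 CPM per kilobase (SD, n = 4). Pycard (10.7 ± 4.01) and Casp1 (9.82 ± 2.85) followed and did not differ beyond their spread, nor did Pstpip1 (4.82 ± 1.80) and Casp4 (3.72 ± 1.90). The sensors and the ATP receptor were lowest, with Aim2 at 1.11 ± 0.341, P2rx7 at 0.857 ± 0.437, Nlrp3 at 0.584 ± 0.280 and Nlrp1b at 0.139 ± 0.0901 CPM per kilobase, and the spreads of Aim2, P2rx7 and Nlrp3 overlapped. In early WT libraries of the same set the order was different behind Txnip (44.1 ± 5.97): Casp4 (4.26 ± 0.901) and Pycard (4.06 ± 2.05) stood together, ahead of Pstpip1 (1.98 ± 0.628) and Casp1 (1.04 ± 0.125), with the sensors and P2rx7 at 0.0211 to 0.212 CPM per kilobase. Casp1 was thus below Casp4 per length at passage 3 and above it at passage 8, and the S6K1/S6K2 set gave the same order of the 2 caspases (0.989 ± 0.571 against 4.79 ± 0.294 early, 10.4 ± 1.10 against 4.42 ± 2.25 late).

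**Figure D1:**
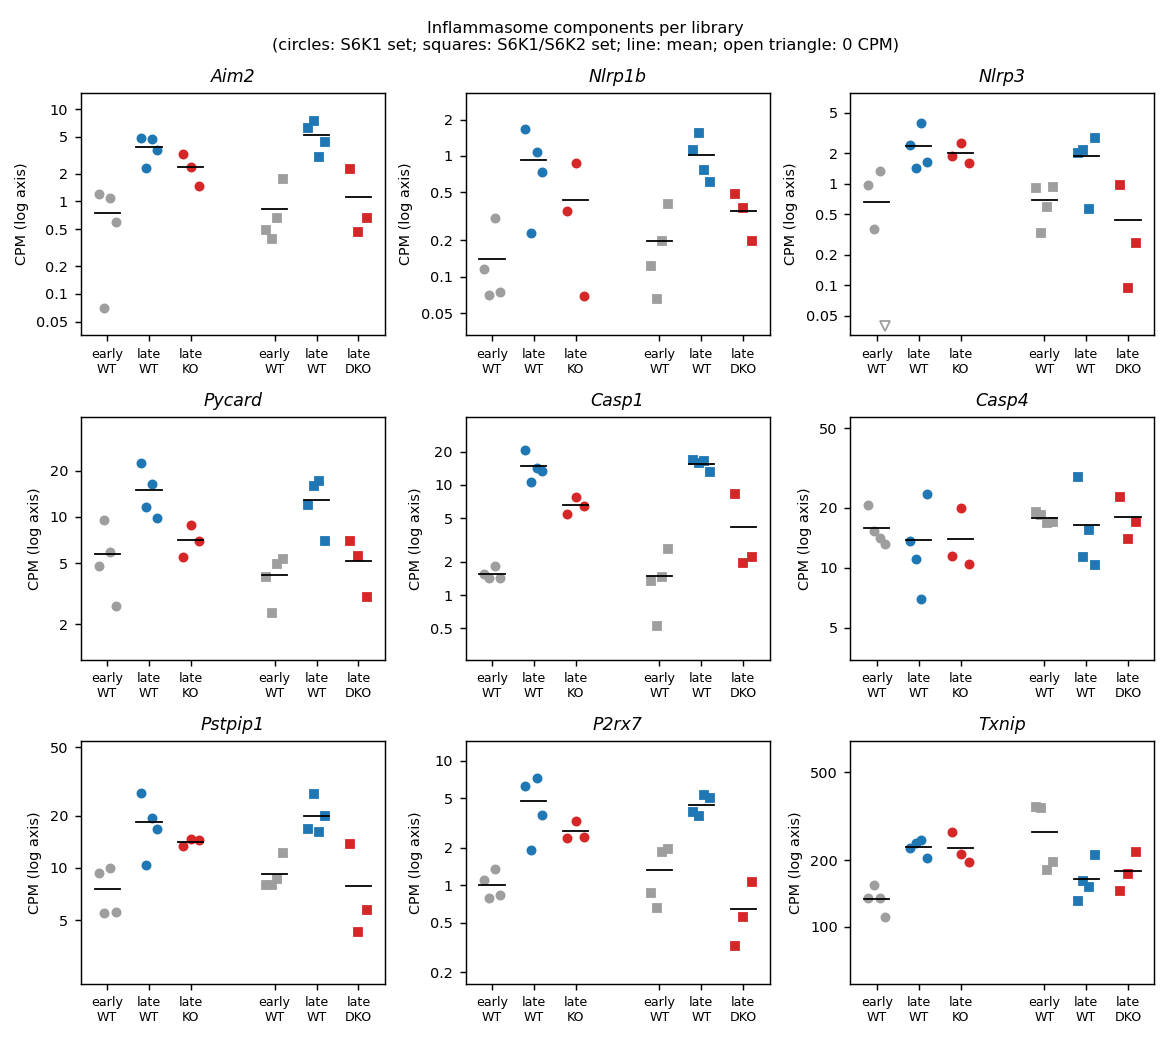
CPM of each member (vertical axis, logarithmic) in each of the 22 libraries by group (horizontal axis), with 1 point per library and a line at the group mean. Casp1 lies at 0.522 to 2.60 CPM in the early WT libraries and at 10.5 to 20.6 CPM in the late WT libraries, while Casp4 groups overlap throughout.

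Passage was compared first, late WT against early WT within each set. In the S6K1 set 7 of the 9 members were higher at passage 8 by edgeR's quasi-likelihood test (adjusted P under 0.05 over 14132 genes): Casp1, Aim2, Nlrp1b, Pycard, Pstpip1, P2rx7 and Txnip. The S6K1/S6K2 set had 6 that were higher: the same members without Txnip. Over all genes tested, 6.96% were called higher in the S6K1 set and 8.28% in the S6K1/S6K2 set. The groups did not overlap, with late WT higher, for 7 members in the S6K1 set and 6 in the S6K1/S6K2 set, against 8.40% and 10.0% of all genes. The median log2 fold change of the 9 members was 1.81 and 1.72, against -0.04 and 0.01 over all genes tested. Nlrp1b, Aim2 and Nlrp3 passed the filter on low counts only through their late-passage libraries. The counts of called members include Nlrp1b and Aim2 in both sets. The counts without overlap include Aim2 and Nlrp3 in the S6K1 set, and Aim2 and Nlrp1b in the S6K1/S6K2 set. Both medians include all 3 of these members, and the S6K1 median is the value of Nlrp3. The other 6 members would have passed on the early WT libraries alone.

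**Figure D2:**
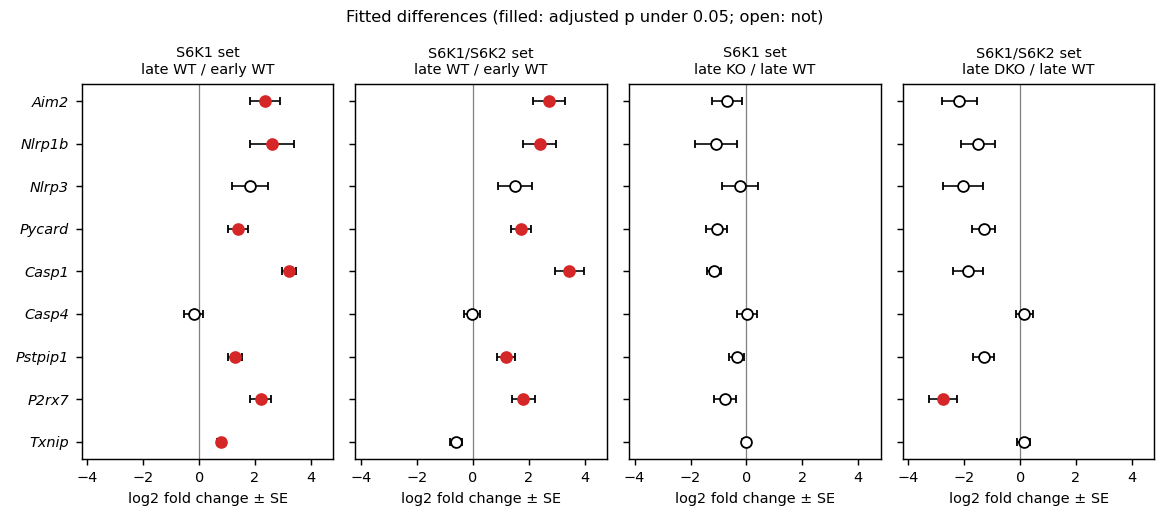
Fitted log2 fold change ± SE (horizontal axis) of each member in the 4 main comparisons, filled where the adjusted P is under 0.05. Points for Casp1 stand at 3.22 and 3.46 for passage, those for Casp4 near 0 in all 4 panels, and P2rx7 in DKO against late WT is the only filled point in the 2 genotype panels.

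Casp1, the effector protease of the canonical route, had the largest fitted passage difference of the 9 in both sets. Its level in early WT libraries of the S6K1 set was 1.56, 1.42, 1.82 and 1.43 CPM, and in late WT libraries 20.6, 10.5, 14.3 and 13.4 CPM. Every late library was far above the highest early library, with a log2 fold change of 3.22 ± 0.25 (SE; adjusted P = 1.46e-05). The S6K1/S6K2 set gave 1.35, 0.522, 1.46 and 2.60 CPM early and 16.8, 15.9, 16.3 and 13.1 CPM late. Here too the groups stood well apart, with a log2 fold change of 3.46 ± 0.52 (adjusted P = 0.00223). The neighbouring Casp4, encoding the lipopolysaccharide-activated caspase, showed nothing of the kind: it was at 20.7, 15.3, 14.1 and 13.2 CPM early and 13.6, 11.1, 6.95 and 23.5 CPM late in the S6K1 set. Its late WT libraries spread wider than the early ones in both sets (SD 7.04 against 3.34 CPM, and 8.36 against 1.09 CPM). The fitted differences of Casp4 were -0.20 ± 0.33 (adjusted P = 0.743) in the S6K1 set and -0.03 ± 0.28 (adjusted P = 0.951) in the S6K1/S6K2 set, where the levels were 19.03, 18.4, 16.7 and 17.0 CPM early and 28.5, 11.4, 15.4 and 10.3 CPM late.

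Pycard, the adaptor that bridges sensors and caspase-1, was at 4.79, 9.51, 5.89 and 2.63 CPM in early and 22.4, 11.5, 16.4 and 9.82 CPM in late WT libraries of the S6K1 set. The lowest late library lay just above the highest early library, and the log2 fold change was 1.39 ± 0.35 (adjusted P = 0.0238). That call was lost without early replicate 05 or without late replicate 19 (adjusted P up to 0.0678). Pycard in the S6K1/S6K2 set was at 4.04, 2.35, 4.90 and 5.33 CPM early and 11.9, 15.8, 17.1 and 6.98 CPM late, a log2 fold change of 1.72 ± 0.37 (adjusted P = 0.0112), and its groups again did not overlap.

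Aim2, the sensor of cytosolic double-stranded DNA, was at 1.21, 0.0709, 1.09 and 0.600 CPM early (1 to 21 counts) and 4.85, 2.29, 4.73 and 3.63 CPM late in the S6K1 set. All late libraries exceeded all early ones, by a log2 fold change of 2.35 ± 0.52 (adjusted P = 0.0117). In the S6K1/S6K2 set the levels were 0.489, 0.392, 0.662 and 1.73 CPM early and 6.19, 7.51, 3.01 and 4.36 CPM late, a log2 fold change of 2.74 ± 0.58 (adjusted P = 0.00994). Nlrp1b, a sensor of microbial proteases that is activated by cleavage, was close to the detection limit, with 1 to 6 counts in the 8 early WT libraries of both sets and 3 to 22 counts in the 8 late WT libraries. Its fitted differences were 2.61 ± 0.78 (adjusted P = 0.0464, groups overlapping) in the S6K1 set and 2.39 ± 0.58 (adjusted P = 0.0198) in the S6K1/S6K2 set. The first of these calls was lost without any 1 of 7 of the 11 libraries in that fit (adjusted P up to 0.115), the second without early replicate 46 or 47 (adjusted P up to 0.0738). In the S6K1/S6K2 set Nlrp1b exceeded the minimum of the filter in 3 libraries, all late WT, and it was not tested at all when any of these 3 (replicates 57, 58 and 59) was left out. Nlrp1b has near-identical neighbours such as Nlrp1a, and how reads shared by such copies were counted is not given in the sources used here, so its counts are uncertain.

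Nlrp3, the sensor that responds to potassium efflux and many other stress signals, was at 0.982, 0.355, 1.34 and 0 CPM early and 2.43, 1.45, 3.95 and 1.65 CPM late in the S6K1 set. The groups did not overlap, but the log2 fold change of 1.81 ± 0.64 did not pass the test (adjusted P = 0.0831). It did so with DESeq2 (1.86, adjusted P = 0.0147), with the level of Y-linked genes as a covariate (2.48, adjusted P = 0.00825) and without early replicate 04 (adjusted P = 0.0481), the library with the highest early level. Libraries of the S6K1/S6K2 set were at 0.918, 0.327, 0.595 and 0.933 CPM early and 2.001, 2.18, 0.561 and 2.82 CPM late, with 1 late library among the early ones and a log2 fold change of 1.498 ± 0.601 (adjusted P = 0.114).

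P2rx7 encodes an ATP-gated cation channel whose opening lets potassium out of the cell and is a classical trigger of Nlrp3. It was at 1.10, 0.780, 1.34 and 0.826 CPM early and 6.22, 1.91, 7.19 and 3.63 CPM late in the S6K1 set, a log2 fold change of 2.20 ± 0.38 (adjusted P = 0.00291). In the S6K1/S6K2 set it was at 0.856, 0.653, 1.85 and 1.93 CPM early and 3.88, 3.58, 5.26 and 5.04 CPM late (1.81 ± 0.41, adjusted P = 0.0144). The late libraries were above the early ones in both sets, and the second call did not hold without early replicate 46 (adjusted P = 0.0558). That fit called 885 of 14249 genes in either direction, against 1892 of 14365 in the main fit. Pstpip1, an adaptor that binds pyrin, was at 9.36, 5.46, 9.95 and 5.55 CPM early and 27.1, 10.4, 19.4 and 16.9 CPM late in the S6K1 set (1.281 ± 0.26, adjusted P = 0.00777). The lowest late level, 10.4 CPM, was close to the highest early level. Pstpip1 in the S6K1/S6K2 set was at 8.01, 7.97, 8.60 and 12.3 CPM early and 16.8, 26.8, 16.2 and 20.01 CPM late (1.19 ± 0.33, adjusted P = 0.0363), a call that was lost when any of 6 of the 11 libraries was left out (adjusted P up to 0.111) and without the filter (adjusted P = 0.0600).

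Txnip was the only member for which the test of the difference between the 2 sets passed. In the S6K1 set it was at 135, 154, 135 and 110 CPM early and 228, 239, 248 and 205 CPM late, a log2 fold change of 0.76 ± 0.14 (adjusted P = 0.00341). The late libraries were all above the early ones. In the S6K1/S6K2 set it was at 347, 344, 181 and 196 CPM early and 131, 162, 152 and 211 CPM late, a log2 fold change of -0.61 ± 0.21 that did not pass the test (adjusted P = 0.0762) but did when all 22 libraries were fitted together (adjusted P = 0.0241) and with DESeq2 (adjusted P = 0.0324). Replicates 46 and 47 were the 2 high early libraries, while replicates 48 and 50 overlapped with the late ones. The difference between the passage effects of the 2 sets was -1.41 ± 0.26 on the log2 scale (adjusted P = 0.00763), and 0.255% of the 14886 genes in that test were called with the S6K1/S6K2 set lower. For the other 8 members this difference was -0.42 to 0.35 (adjusted P = 0.844 to 0.954).

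**Figure D3:**
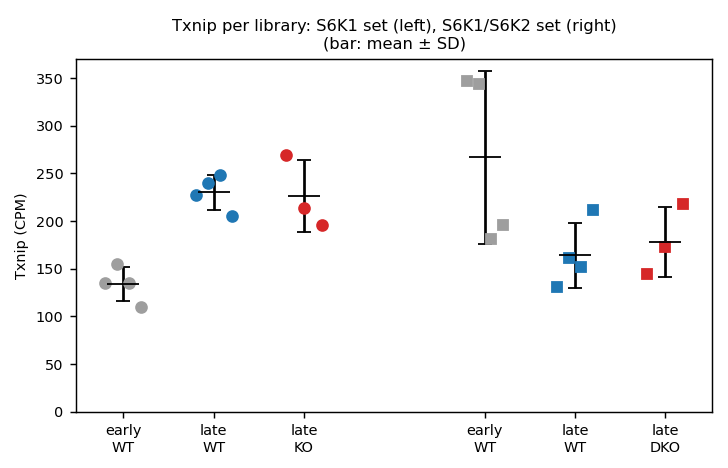
Txnip level in CPM (vertical axis, from 0) in each library by group, with the mean ± SD; circles on the left are the S6K1 set and squares on the right the S6K1/S6K2 set. The early WT libraries sit at 110 to 154 CPM in the S6K1 set and at 181 to 347 CPM in the S6K1/S6K2 set, below their late WT group in the former and partly above it in the latter.

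The summed macrophage markers moved with these passage differences. All 18 macrophage markers that passed the filter were called higher at passage 8 in the S6K1 set (Cd163 did not pass), and 17 of 18 in the S6K1/S6K2 set, with Fcgr1 the exception. Group means of the sum were 9.81 times higher late than early in the S6K1 set and 7.60 times higher in the S6K1/S6K2 set, against 9.45 and 10.5 times for Casp1. The ratio was lower for the other members that were called in both sets: 5.21 and 6.43 for Aim2, 6.58 and 5.15 for Nlrp1b, 4.69 and 3.35 for P2rx7, 2.63 and 3.12 for Pycard and 2.44 and 2.16 for Pstpip1. Expressed per 1000 CPM of the summed markers, Casp1 was at 1.52 to 3.25 in early and 1.38 to 2.10 in late WT libraries of the S6K1 set, and at 0.776 to 1.36 early and 1.17 to 1.67 late in the S6K1/S6K2 set. These ranges overlapped in both sets, while the mean was lower late in the former (2.03 and 1.81) and higher late in the latter (1.04 and 1.48). Pycard per 1000 CPM of markers was 4.90 to 11.3 early and 1.54 to 2.14 late in the S6K1 set and 2.51 to 4.09 and 0.851 to 1.58 in the S6K1/S6K2 set. The part of macrophage reads in the passage differences of the members was not tested.

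**Figure D4:**
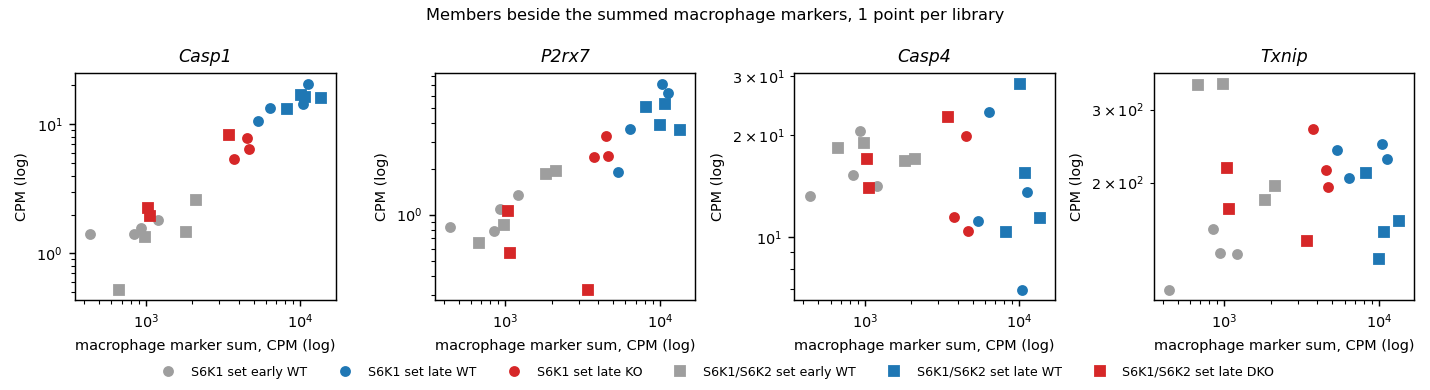
Level of 4 members in CPM (vertical axes, logarithmic) against the summed CPM of the 19 macrophage markers (horizontal axes, logarithmic), 1 point per library, coloured by group. Casp1 is at 0.522 to 2.60 CPM where the sum is 439 to 2125 CPM and at 10.5 to 20.6 CPM where it is 5372 to 13561 CPM, and P2rx7 at 0.559 to 1.93 CPM and 1.91 to 7.19 CPM over the same ranges, with 1 DKO library at 0.323 CPM beside a sum of 3450 CPM; Casp4 and Txnip show no such order.

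Within groups, deviations of log2 CPM from the group means were compared between each member with a mean of at least 1 CPM and 13008 genes over the 22 libraries, as a description. Casp1 deviated most like Cybb (r = 0.93), which encodes the phagocyte NADPH oxidase subunit, followed by Vav1 (r = 0.93) and the complement gene C1qa (r = 0.93). Aim2 was closest to Nckap1l (r = 0.83), the leukocyte integrin gene Itgb2 (r = 0.83) and C1ql3 (r = 0.83). Pstpip1 was closest to Hmha1 (r = 0.89), Trf (r = 0.88) and Adam8 (r = 0.88). The nearest genes were Spcs3 for Casp4 (r = 0.87), a signal peptidase subunit, Nubp1 for Nlrp3 (r = 0.90), Hsdl1 for P2rx7 (r = 0.85) and Llgl1 for Txnip (r = 0.78). Libraries share depth and composition across genes, and Nlrp3, Aim2 and P2rx7 rest on few counts.

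Loss of S6K1 was then examined by comparing late KO with late WT MEFs. None of the 9 members passed the test; 0.0354% of all genes were called lower, 6 genes were called in either direction, and 1499 had an unadjusted P under 0.05, among them 2 members (Casp1 and Pycard). DESeq2 called 1 member, Casp1 (log2 fold change -1.16, adjusted P = 0.00417), and 266 of 14132 genes in either direction. Casp1 was at 5.40, 7.82 and 6.39 CPM in KO libraries, all below the 4 late WT libraries, a log2 fold change of -1.15 ± 0.25 (adjusted P = 0.173). Pycard was at 5.47, 8.81 and 6.94 CPM in KO libraries, also below every late WT library (-1.07 ± 0.38, adjusted P = 0.356). Groups did not overlap, with KO lower, for these 2 members, against 7.01% of all genes. The KO levels of the others lay within or across the WT range: Aim2 at 3.30, 2.36 and 1.46 CPM (-0.70 ± 0.52), P2rx7 at 2.38, 3.29 and 2.43 CPM (-0.78 ± 0.39), Pstpip1 at 13.5, 14.7 and 14.5 CPM (-0.35 ± 0.28), Nlrp3 at 1.89, 2.54 and 1.60 CPM (-0.22 ± 0.64) and Nlrp1b at 0.351, 0.869 and 0.0694 CPM (-1.08 ± 0.75). Casp4 at 11.4, 19.9 and 10.4 CPM (0.01 ± 0.36) and Txnip at 269, 214 and 196 CPM (-0.01 ± 0.15) were nearest to 0. All 18 macrophage markers tested had negative fitted differences in KO, of -1.98 to -0.58, without any passing the test. For 11 of these 18 the groups did not overlap, with KO lower, against 7.01% of all genes. The mean sum was 1.94 times lower than in late WT MEFs, against 2.25 times for Casp1 and 2.12 times for Pycard. Per 1000 CPM of macrophage markers, Casp1 was at 1.37 to 1.73 in KO and 1.38 to 2.10 in late WT libraries. The part of these markers in the KO differences was not tested. Y-linked genes summed to 1 CPM or more in all 3 KO libraries, in 1 of the 4 late WT and in 2 of the 4 early WT libraries. The sex of the embryos was thus uneven between KO and late WT libraries, and sex and genotype cannot be fully told apart in this comparison. With the Y-linked level as a covariate no member was called in KO against late WT either. In the S6K1/S6K2 set the sum reached 1 CPM in 2 of 4 early WT, 3 of 4 late WT and 1 of 3 DKO libraries.

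Compared with early WT MEFs, late KO MEFs had higher Casp1 (2.07 ± 0.26, adjusted P = 0.000893), Txnip (0.75 ± 0.15, adjusted P = 0.00905) and P2rx7 (1.42 ± 0.41, adjusted P = 0.0435), 3 of 9 members beside 5.93% of all genes. This comparison shares its early WT libraries with the passage comparison and its KO libraries with the genotype comparison. The call for P2rx7 was lost without any 1 of 8 of the 11 libraries (adjusted P up to 0.123) and with the Y-linked level as a covariate (adjusted P = 0.0972). Pycard was at 0.32 ± 0.38 (adjusted P = 0.614), and DESeq2 also called Aim2 and Pstpip1 (adjusted P = 0.0142 and 0.0162). It called 2675 of 14132 genes here in either direction, against 1578 in the main fit.

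In DKO against late WT MEFs of the S6K1/S6K2 set, P2rx7 was lower and the other 8 members did not pass the test, while 3.95% of all genes were called lower. P2rx7 was at 0.323, 0.559 and 1.05 CPM in the DKO libraries (4 to 16 counts), below the lowest late WT library at 3.58 CPM. The log2 fold change was -2.75 ± 0.50 (adjusted P = 0.0112), a call that was lost without DKO replicate 62 (-2.67, adjusted P = 0.0733). In that fit 97 of 14695 genes were called in either direction, against 686 of 14365 in the main fit. Levels of 6 members lay lower in all DKO than in all late WT libraries, against 10.5% of all genes: P2rx7, Casp1, Aim2, Pycard, Pstpip1 and Nlrp1b. Aim2 and Nlrp1b, however, passed the filter only through the late WT libraries, the higher group here, so that the count bears on the other 4. For Casp1 the DKO libraries were at 8.31, 1.95 and 2.23 CPM (-1.86 ± 0.54, adjusted P = 0.0763) and for Aim2 at 2.26, 0.465 and 0.656 CPM (-2.18 ± 0.63, adjusted P = 0.0738). Pycard was at 6.94, 5.59 and 3.02 CPM (-1.31 ± 0.41, adjusted P = 0.0971), Pstpip1 at 13.7, 4.28 and 5.71 CPM (-1.31 ± 0.37, adjusted P = 0.0701) and Nlrp1b at 0.484, 0.372 and 0.197 CPM (-1.504 ± 0.617, adjusted P = 0.213). Nlrp3, at 0.968, 0.0931 and 0.262 CPM, overlapped with the WT libraries (-2.03 ± 0.71, adjusted P = 0.142).

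Replicate 61 was the highest DKO library for Casp1, Casp4, Aim2, Pycard, Pstpip1, Nlrp1b and Nlrp3, and the lowest for P2rx7 and Txnip. Without it 5 members were called lower (Casp1, Aim2, Nlrp3, Pstpip1 and P2rx7), with Casp1 at -2.89 and Aim2 at -3.20. In that fit 686 of 14739 genes were called in either direction. The summed macrophage markers of replicate 61 were 3450 CPM, against 1071 and 1037 CPM in the other 2 DKO libraries. DESeq2 on the same groups called 5 members lower (P2rx7, Casp1, Aim2, Pycard and Pstpip1). It called 1206 of 14365 genes in either direction, against 686 in the main fit. A fit of all 22 libraries called 3 members (P2rx7, Casp1 and Pstpip1), beside 670 of 14886 genes. Leaving out early WT replicate 50 gave 2, P2rx7 and Aim2, beside 676 of 14289 genes. Aim2 passed the filter of the main fit only through the late WT libraries. Casp4 at 22.7, 14.0 and 17.1 CPM (0.14 ± 0.30, adjusted P = 0.854) and Txnip at 145, 173 and 217 CPM (0.13 ± 0.23, adjusted P = 0.823) were near the late WT levels. Of the 18 macrophage markers, 17 were called lower in DKO and Tyrobp was not, and the mean sum was 5.76 times lower than in late WT MEFs, against 3.72 times for Casp1, 4.68 times for Aim2 and 6.90 times for P2rx7. Per 1000 CPM of macrophage markers, Casp1 was at 1.82 to 2.41 in DKO and 1.17 to 1.67 in late WT libraries, and P2rx7 at 0.0935 to 1.01 and 0.264 to 0.613. The part of these markers in the DKO differences was not tested.

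Against early WT MEFs no member passed the test in DKO MEFs, where 9.34% of all genes were called higher and 4815 genes had an unadjusted P under 0.05. The only member among these 4815 was Casp1, at 1.59 ± 0.55 (adjusted P = 0.0652, and 0.0171 with DESeq2), and replicate 61 lay above all early libraries whereas replicates 62 and 64 lay within their range. P2rx7 was at -0.94 ± 0.50 (adjusted P = 0.208). The difference between the genotype effects of the 2 sets passed the test for none of the members, also with DESeq2, and for 1 gene in all, the targeted Rps6kb2, which is the 0.00672% called lower. P2rx7 had the largest such difference (-1.96 ± 0.62, unadjusted P = 0.00494, adjusted P = 0.302); over the 9 members 1 unadjusted P was under 0.05.

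The pathway around these members was followed with 79 further genes in 7 lists, 67 of which passed the filter in each set. At late passage 12 were called higher and 3 lower in the S6K1 set, and 14 higher and 7 lower in the S6K1/S6K2 set, beside 6.96% and 8.28% of all genes called higher and 5.97% and 4.89% called lower. In KO against late WT none was called (7 had an unadjusted P under 0.05), and in DKO against late WT 8 were called lower (3.95% of all genes) and none higher. Medians over the tested genes were 0.18, 0.19, -0.03 and -0.18 in these 4 comparisons, against -0.04, 0.01, -0.01 and -0.01 over all genes. Of the 79 genes, only Il1b was checked for passing the filter solely through the libraries in which it was high. The counts and medians of the pathway genes may therefore include others that passed in that way.

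Among 13 tested sensor genes, 4 were higher with passage in the S6K1 set and 5 in the S6K1/S6K2 set, where 2 were lower. Nlrc4, the scaffold of the flagellin-responsive inflammasome, rose by 3.15 ± 0.57 and 1.98 ± 0.55 on the log2 scale (adjusted P = 0.00342 and 0.0361). Its partners Naip2 (2.25 and 1.79) and Naip5 (2.95 and 2.51) rose in both sets and fell in DKO (-1.84 and -3.32, adjusted P = 0.0458 and 0.00511). Naip6 was called in the S6K1/S6K2 set, higher with passage (2.65) and lower in DKO (-3.09). The Naip genes are close copies of each other, and how reads shared between them were counted is not given, so their counts are uncertain. Ifi207, of the same family of DNA-binding proteins as Aim2, rose by 1.95 and 1.29 (adjusted P = 0.000605 and 0.0205).

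Of 8 channel genes, 4 were higher with passage in the S6K1 set, and of the 7 tested in the S6K1/S6K2 set 1 was: Trpv2, a cation channel, rose by 1.62 and 1.38 (adjusted P = 0.00106 and 0.0234). Of 13 genes for receptors and signalling of priming, the step that induces inflammasome genes, 4 were higher with passage in each set. They were the receptor Tlr2 (1.95 and 1.20), the lipopolysaccharide co-receptors Cd14 (1.69 and 1.91) and Ly96 (1.07 and 1.06) and the transcription factor Irf8 (2.36 and 2.49). Tlr2, Cd14 and Irf8 were also the 3 called lower in DKO (-1.35, -2.04 and -2.21), while Ly96 was at 0.30 (adjusted P = 0.703). Cd14 is also on the macrophage list. The guanylate-binding and immunity-related GTPases, which help to expose bacterial ligands to Casp4, went the other way: 2 of 5 tested were lower with passage in the S6K1 set and 4 of 5 in the S6K1/S6K2 set, against 5.97% and 4.89% of all genes. Gbp3 fell in both (-1.33 and -1.79, adjusted P = 0.0443 and 0.00855), as did Gbp7 (-1.28 and -1.39, adjusted P = 0.0334 and 0.0112), and none of the 5 was called in KO or DKO.

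Of the 4 other caspases tested, 1 was lower with passage in each set and none was called in KO or DKO. Among 17 adaptor, licensing and inhibitor genes none was called with passage in the S6K1 set, 2 were higher in the S6K1/S6K2 set and 1 was lower in DKO. The cytokine substrates had few reads. Il1b had 0 to 6 counts in every library of the S6K1 set and was not tested there. In the S6K1/S6K2 set it had 1, 0, 0 and 1 counts in the early and 30, 30, 20 and 16 counts in the late WT libraries, and was called higher with passage (adjusted P = 0.00131). No early library reached the minimum of the filter, so that Il1b was tested only through the libraries in which it was high. The DKO libraries had 4, 9 and 2 counts (-1.92 ± 0.63 against late WT, adjusted P = 0.119). The passage difference of Il1b between the sets did not pass the test (adjusted P = 0.0508). Il1a had 0 to 3 counts per library and was not tested. Il18 was at 0.225 to 4.63 CPM over all libraries and was called in none of the comparisons.

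Gsdmd, encoding the pore-forming gasdermin D that caspase-1 and the Casp4 product cleave, did not pass the test for passage (0.63 ± 0.42 and 0.35 ± 0.19). It was at 7.42, 7.73 and 7.81 CPM in DKO libraries against 18.3, 24.996, 13.8 and 17.9 CPM in late WT libraries. The DKO libraries were close together and all lower, by -1.27 ± 0.21 on the log2 scale (adjusted P = 0.00771), and lower than early WT as well (-0.92 ± 0.21, adjusted P = 0.0127). In KO against late WT Gsdmd was at -1.10 ± 0.47 (adjusted P = 0.438). Gsdme, a gasdermin cleaved by caspase-3, was at 1.49 to 5.69 CPM over all libraries and was not called in any comparison.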

How the data were processed

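The 22 MEF RNA-seq libraries were analysed as read counts per gene, 1 column per library, in 6 groups taken from the labels. RAS-expressing and liver libraries were not used here. The study's methods give CASAVA, TopHat with mm9 and HTSeq counts per gene made by the authors, whereas the submitters' processing notes name CASAVA, STAR 2.7.1a, DESeq2 1.28.1 and mm10. Of the 55401 identifiers, 22790 are numbered above any in the mm9 annotation available (GENCODE vM1), so the annotation is a later one. Coordinates and promoter sequences are RefSeq's on GRCm38.p6, exon lengths are unions of GENCODE vM1 exons, and all 9 members matched by identifier and symbol.

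The deposited counts were scaled to CPM by the library total for printed levels. Each set of 3 groups was fitted with edgeR 4.0.16 (R 4.3.3; TMM scaling, filterByExpr, robust quasi-likelihood F test), with Benjamini-Hochberg adjustment over all genes tested and a threshold of 0.05; differences between sets were tested as interactions in a fit of all 22 libraries. Named genes are the 9 members, the targeted kinases, 5 substrates and gasdermins, the 12 pathway genes with the smallest adjusted P among those called in at least 2 of the 4 main comparisons, and the genes that deviate most like each member of at least 1 CPM; those for Pycard are not reported here. Members and lists were chosen with earlier results of these data known. No pair among 30 within a group agreed within sampling noise (chi-square per degree of freedom 20.6 to 265.7). Tested on simulated data for late against early WT of the S6K1 set, 33.5% of 200 genes changed by 1 log2 unit were found (13847 genes) and 84.5% of those changed by 2 (13866 genes). Of the calls made, 8.22% and 4.52% were genes that had not been changed. Alternatives were DESeq2 1.42.0, RLE scaling, no filter, fits on 2 groups or on all 22 libraries, a Y-linked covariate and leaving out each library. Promoter letters were searched in the 250 bases before each start on both strands. Floors cover counting error only.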

Additional observations from a re-analysis of the deposited data

Results flagged for a closer look

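Txnip was singled out because its passage effect differed between the MEF sets by a test of the difference itself: the S6K1/S6K2 effect minus the S6K1 effect was -1.41 on the log2 scale. Pstpip1 in early WT replicate 50 of the S6K1/S6K2 set, at 12.3 CPM, stood apart from the other 3 libraries of its group, which were at 7.97 to 8.60 CPM (gap over range 0.853, above the critical value of Dixon's test for 4 libraries). Of 40 group and gene combinations examined in this way, the macrophage sum included, this was the only one, and chance gives about 1 in 20.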

How the results depend on the processing

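No paired analysis was possible because the labels carry no replicate numbers shared between groups. The number of members called at late passage was 7 in the S6K1 set, 5 to 8 with a library left out, and 6 in the S6K1/S6K2 set, 3 to 7 with a library left out and lowest without early replicate 46. Without that replicate 885 of 14249 genes were called in either direction, against 1892 of 14365 in the main fit. In KO against late WT it was 0, but 1 with DESeq2; in KO against early WT 3 (2 to 4 with a library left out), but 5 with DESeq2. In DKO against late WT it was 1 (0 to 5), but 5 with DESeq2 and 3 with all 22 libraries in the fit, and in DKO against early WT 0 (0 to 1), but 1 with DESeq2 and 1 with all 22 libraries. The lowest number in DKO against late WT came without DKO replicate 62, where 97 of 14695 genes were called in either direction. The highest with a library left out came without replicate 61, beside 686 of 14739 genes. DESeq2 also called more genes in all: 266 against 6 (late WT) and 2675 against 1578 (early WT) of 14132 in the KO comparisons. In the DKO comparisons it called 1206 against 686 (late WT) and 3473 against 2623 (early WT) of 14365. The fit of all 22 libraries called 670 and 2354 of 14886 genes in the DKO comparisons. The cause of the changes in the number of members called was not tested. DESeq2 gave no adjusted P for Nlrp1b in KO against late WT. The interactions gave 1 member for passage (Txnip) and 0 for genotype under every alternative run. Fitted differences that changed sign were all small or uncalled. Casp4 in KO against late WT was -0.00232 with DESeq2 and -0.00353 with 2 groups (-0.32 to 0.40 with a library left out), Casp4 in KO against early WT was 0.029 with the Y-linked covariate, and Txnip in KO against late WT was 0.060 with it (-0.15 to 0.046 with a library left out). Leaving out a library also gave -0.59 to 0.080 for Casp4 with passage in the S6K1 set and -0.43 to 0.13 in the S6K1/S6K2 set, -0.087 to 0.54 for Casp4 in DKO against late WT and -0.40 to 0.093 for Nlrp3 in KO against late WT. In DKO against early WT the ranges were -0.14 to 0.24 for Casp4, -0.48 to 1.23 for Aim2 and -0.83 to 0.17 for Pstpip1. Nlrp1b in the S6K1/S6K2 set was not tested without late WT replicate 57, 58 or 59, and its passage difference was not tested in either set with 2 groups alone. Depth limits Nlrp1b, Nlrp3, Il1b and Il1a, which had under 1 CPM in many libraries. It also limits Aim2 and P2rx7, which were under 1 CPM in some early WT and DKO libraries. P2rx7 had 4 to 16 counts in the DKO libraries.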

Other observations

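Of the other cell types checked, lymphocyte and erythroid markers were too low to be tested in either set, and the 5 mast cell and granulocyte markers summed to at most 4.70 CPM per library. Csf3r, a granulocyte and monocyte cytokine receptor, was the only one of those 5 that was tested, and it was called higher at late passage in both sets (4.65 and 2.41 on the log2 scale), having passed the filter only through late libraries. The 4 endothelial markers summed to 3.97 to 9.83 CPM early and 2.06 to 3.48 CPM late in WT libraries of the S6K1 set, and to 4.96 to 6.07 and 2.66 to 4.35 CPM in the S6K1/S6K2 set. The 4 epithelial markers summed to 11.1 to 21.99 CPM early and 3.13 to 9.78 CPM late in the S6K1 set, and to 5.75 to 51.7 and 1.13 to 13.5 CPM in the S6K1/S6K2 set, where the ranges overlapped. Of these 8 genes 1 was called lower with passage in each set, Kdr in the S6K1 set and Krt8 in the S6K1/S6K2 set. The libraries measure mRNA in mixed cultures at 2 passages, so processing of caspase-1 or of its substrates was not observed, and no early-passage KO or DKO library was analysed here.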
